A study of Mus musculus with 27 samples.

Results

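The day 16 change of gene expression was compared between zone 1 and zone 2 of the mouse liver lobule, that is, between the hepatocyte layers around the portal vein and the middle of the lobule. The question was whether the border between the portal and the middle zone moves in late gestation. For each gene the change from non-pregnant (NP) mice to dpc16 (16 days post coitum) was taken in zone 1 and in zone 2, and the change in zone 2 was subtracted from that in zone 1. A value above 0, called here the difference of changes, means that the gene went up more, or down less, in zone 1 than in zone 2. The comparison used 12 of the 27 libraries, 3 in each of the 4 groups NP zone 1, NP zone 2, dpc16 zone 1 and dpc16 zone 2. All mice were wild-type C57BL/6 females (C57BL/6N in the study's methods), 8 to 14 weeks of age in the study's methods, and the pregnant mice carried 6 to 12 pups. No transgene or agent was used in these groups. Areas of 2 mm2 were cut by laser from frozen sections, so each library held all the cells of its zone. Fewer cells of a type and less RNA per cell cannot be told apart in such samples. The study's legends call the 3 libraries of a group independent experiments, and its methods state that all experiments were done at least 4 times, in different mice. The labels do not tie these libraries to separate animals, and p-values then measure only the spread between libraries, which may be technical. Of 21823 genes in the table, 12063 had an FPKM (a fragment count divided by the length of the transcript and the number of mapped fragments) of at least 1 in at least 3 of the 12 libraries and were tested.

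Blood enters the liver lobule at the portal vein and leaves at the central vein, and hepatocytes along this path carry out different work. Portal hepatocytes make urea and glucose and break down amino acids. Central hepatocytes make glutamine and bile acids and carry most cytochrome P450 enzymes, under the influence of Wnt proteins released by the endothelium of the central vein. The border between zones 1 and 2 is therefore read from genes that fade out from either side. In pregnancy the liver enlarges, and placental lactogens and growth hormone act on it through the prolactin and growth hormone receptors.

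The estimated depth of the 12 libraries was 10.3 to 32.7 M mapped reads (M for the prefix mega), no 2 libraries were identical, and the correlation between libraries of a group was 0.888 to 0.983. Replicate 1 of NP zone 1 and replicate 3 of dpc16 zone 2 stood apart from the other 10. The FPKM of 4 Y-linked genes, which females lack, summed to 15.4 and 23.2 in these libraries and to at most 2.97 in the others. Summed FPKM of 18 connective tissue and smooth muscle genes was 3717 and 5834 there, against 133 to 356 elsewhere, and the fibroblast, proliferation and skeletal muscle lists were at their highest in the same libraries. Alb, which encodes albumin, was lowest in them, at 30723 and 41785 FPKM, against 44042 to 203747. One of the 2 is a zone 1 library before pregnancy and the other a zone 2 library at dpc16, so both enter the difference of changes with the same sign. The difference of changes is therefore also given without these 2 libraries, in a fit that leaves out all 6 libraries of the series with Y-linked FPKM above 5.

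The zone labels were borne out by most biliary, periportal and pericentral marker genes. All 7 tested genes of the biliary epithelium, which lines the bile ducts beside the portal vein, were higher in zone 1 at both stages, and 6 of them at dpc16 without the libraries that stand apart. Of 14 periportal markers, 13 had the higher mean in zone 1 at NP and 14 at dpc16. Of 17 tested pericentral markers, 17 had the higher mean in zone 2 at NP and 14 at dpc16, or 16 at dpc16 without the libraries that stand apart. The midlobular markers did not bear out the label of zone 2. Of 5 tested, 4 had the higher mean in zone 2 at NP and 0 at dpc16. Without the libraries that stand apart it was 3 of 5 at each stage. The 17 connective tissue genes tested were higher in zone 1 in 16 cases at NP and in 2 at dpc16, and in 12 and 13 cases without these libraries.

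**Figure D1:**
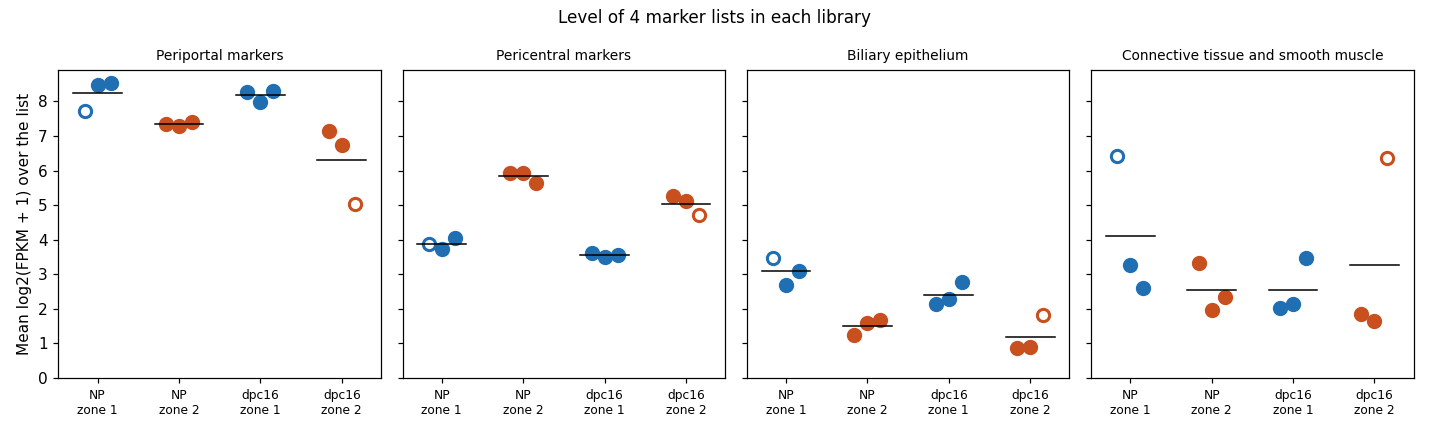
Mean log2(FPKM + 1) of 4 marker lists in each of the 12 libraries, with zone 1 in blue, zone 2 in red, group means as black lines and the 2 libraries that stand apart as open circles. Periportal and biliary levels were higher in zone 1 and pericentral levels in zone 2, and the open circles lie at 6.43 and 6.36 in the connective tissue panel, where the other libraries lie at 1.64 to 3.47.

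No gene passed the test of the difference of changes. In limma's fit of log2(FPKM + 1) the share called was 0.00% of 12063 genes at an adjusted p of 0.05, and the smallest adjusted p was 0.799. Before adjustment p lay under 0.05 for 535 genes, or 4.44%, with 310 above 0 and 225 below. Without the libraries that stand apart the number called was again 0, and 374 genes had an unadjusted p under 0.05, of which 194 were shared with the former 535 and had the same sign. With replicate numbers as a block within each stage 0 genes were called, and 1034 had an unadjusted p under 0.05. The median over all genes was 0.01. The precision limits what these data can show. The 95% interval of a gene's difference of changes extended a median of 1.06 log2 units to either side, and 0.976 without the libraries that stand apart. The whole interval lay within 1 log2 unit of 0 for 2083 genes, or 17.3%, and within 2 units for 8896, or 73.7%. A difference of 2 units on the log2(FPKM + 1) scale lay outside the interval of these genes, and 1 unit was not resolved for most of them. This scale understates fold changes of genes at low FPKM, so a 4-fold difference of expression is not excluded for those.

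The change within each zone was easier to detect than the difference between the zones. In zone 1, 181 genes changed from NP to dpc16 (1.50% of those tested), 130 upwards and 51 downwards. In zone 2, 360 genes changed (2.98%), 135 upwards and 225 downwards. Both counts depended on the libraries and the fit. They were 401 and 603 without the 6 libraries, 58 and 124 in a fit of the 12 libraries alone, 619 and 1043 with array weights, and 478 and 464 with replicate numbers as a block within each stage, when zone 1 had the larger count. The excess of falls in zone 2 turned without the 6 libraries (342 upwards and 261 downwards) and with array weights (539 and 504). It held with the 12 libraries alone (51 and 73) and with the block (197 and 267). Leaving out 1 library gave 91 (without replicate 1 of dpc16 zone 1), 99 (replicate 2 of that group), 110 and 116 (replicates 1 and 2 of NP zone 1) and 319 (replicate 3 of dpc16 zone 2) in zone 1. In zone 2 it gave 203 without replicate 3 of NP zone 2, and 291 without replicate 3 of dpc16 zone 2, when the number of genes that fell was 116. A count that is larger in one zone than in the other was not tested as a difference between zones.

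Genes that marked the border between zones 1 and 2 were few. At NP, 21 genes differed between the zones (0.174% of those tested), 6 higher in zone 1 and 15 higher in zone 2. At dpc16, 18 genes differed (0.149%), 10 higher in zone 1 and 8 higher in zone 2. These counts are not firm. With replicate numbers as a block within each stage they were 57 and 35, without the libraries that stand apart 27 and 37, with the 12 libraries alone 12 and 2, and with a pseudocount of 0.1 they were 25 and 10. The split at dpc16 also turned. Zone 1 was higher in 14 and zone 2 in 21 with the block, in 12 and 25 without the libraries that stand apart, and in 3 and 7 with the pseudocount. With a connective tissue covariate it was 30 and 23. The 7 genes called at both stages were Cyp2e1, Lect2, Cyp2c69, Lhpp and Gulo on the zone 2 side and Lamc3 and Kcne3 on the zone 1 side. Of the 21 genes chosen at NP, 20 had the same direction at dpc16, and of the 18 chosen at dpc16, 17 had it at NP, where 44.3% of all genes tested had the same direction at both stages (57.5% without the libraries that stand apart). Over all genes the zone differences of the stages correlated at a Pearson r of -0.06, or 0.33 without these libraries, a description across genes that are not independent replicates. Of the 21 and 18 genes, 6 and 4 reached the FPKM minimum in 1 zone only, and so passed the filter through the zone where they were high. The other 15 and 14 all had the same direction at both stages. The exceptions were Gm45692, a predicted gene, and 2210407C18Rik, each listed at 0 at the other stage. The median size of the zone difference of the 21 genes was 2.45 log2 units at NP, where they were chosen, 2.15 at dpc8 and 1.77 at dpc16, or 2.103 at dpc16 without the libraries that stand apart. For the 18 genes chosen at dpc16 it was 2.42 there, 1.78 at dpc8 and 1.72 at NP, or 1.82 at NP without these libraries. Each set was largest at the stage where it was chosen, so these medians do not show a flatter border at either stage.

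**Figure D2:**
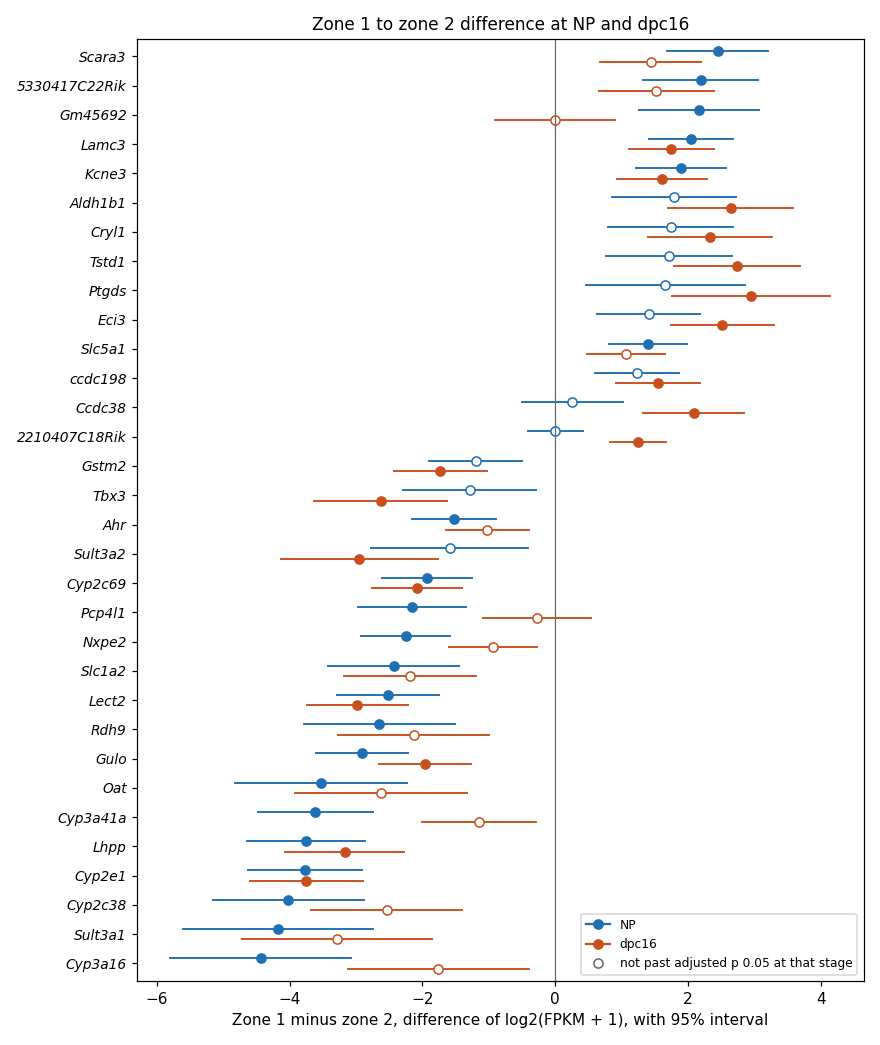
Zone 1 minus zone 2 difference of log2(FPKM + 1), with its 95% interval, for the 32 genes called at NP (blue) or dpc16 (red), where open symbols did not pass at that stage. The intervals of Cyp2e1 at the 2 stages lie over each other, while the dpc16 symbols of Cyp3a16, Cyp3a41a and Pcp4l1 lie closer to 0 than those of NP.

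Cyp2e1, a cytochrome P450 of the central zone that oxidises ethanol and small solvents, gave the clearest border at both stages. Its promoter is printed because the gene carries this result, with the motif CTTTGA, the core bound by the TCF/LEF partners of beta-catenin, in capitals. The sequence is from RefSeq on GRCm38.p6, from 250 bases before to 50 bases after the start, at chr7:140763569-140763868 on the plus strand.
Cyp2e1 promoter: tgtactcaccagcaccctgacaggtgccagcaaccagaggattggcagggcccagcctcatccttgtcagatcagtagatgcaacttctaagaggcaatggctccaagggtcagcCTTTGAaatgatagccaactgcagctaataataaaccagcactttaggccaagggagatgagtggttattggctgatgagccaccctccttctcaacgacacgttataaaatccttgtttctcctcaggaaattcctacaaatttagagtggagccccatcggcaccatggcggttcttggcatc
The motif was searched on both strands and was held by 5257 of 32851 promoters of this length, and by 7 of the 24 promoters found for the 32 border genes (29.2%), among them those of Lect2, Aldh1b1, Sult3a1 and Sult3a2. A match of these letters is a description of the window and not a bound site.

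Cyp2e1 (chr7:140763739-140774987 on mm10, plus strand) was at 216, 247 and 268 FPKM in NP zone 1 and at 4867, 2620.5 and 2875 FPKM in NP zone 2. At dpc16 it was at 103, 98.9 and 49.9 FPKM in zone 1 and at 1564, 1190.2 and 687 FPKM in zone 2. Every zone 2 library exceeded every zone 1 library at its stage, and every dpc16 library was below every NP library of its zone. The zone difference was -3.77 at NP and -3.75 at dpc16 on the log2 scale (limma adjusted p = 4.81e-05 and 9.01e-05). The change with pregnancy was -1.59 in zone 1 (adjusted p = 0.054) and -1.61 in zone 2 (adjusted p = 0.033), which gives a difference of changes of 0.02 with a 95% interval from -1.19 to 1.23. Without the libraries that stand apart it was -0.39, and the changes were -1.68 (adjusted p = 0.016) and -1.28 (adjusted p = 0.052). The fitted step across the border had nearly the same size at both stages, while the level was lower on both sides.

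Lect2 and Cyp2c69 fell on both sides of the border. Lect2, which encodes a chemotactic protein secreted by hepatocytes and is a Wnt-responsive gene of the central zone, was at 13.7, 21.8 and 36.0 FPKM in NP zone 1 and at 107, 119 and 179.0 FPKM in NP zone 2. At dpc16 its FPKM was 1.21, 0.640 and 0.941 in zone 1 and 13.7, 12.04 and 16.9 in zone 2. Zone 2 was above zone 1 in every library of its stage, and the zone 2 levels of dpc16 reached down to the lowest zone 1 level of NP. Its fall was -3.60 in zone 1 and -3.14 in zone 2 (limma adjusted p = 2.1e-06 and 2.6e-05), and the difference of changes was -0.46 with an interval from -1.54 to 0.62, or -0.66 without the libraries that stand apart. For Cyp2c69, a cytochrome P450 of the Cyp2c cluster, the zone 1 values were 95.05, 173 and 105 FPKM at NP and 11.6, 8.72 and 6.85 FPKM at dpc16, and the zone 2 values were 405, 452 and 535 FPKM at NP and 54.7, 31.3 and 39.6 FPKM at dpc16. Zone 2 was above zone 1 in every library at both stages. The falls were -3.61 and -3.47 (adjusted p = 5.0e-07 and 1.1e-06) and the difference of changes was -0.15 (interval -1.11 to 0.81), or -0.34 without these libraries. Of the 86-base windows of the Cyp2c69 transcript, the read length here, 39.5% also occur in another Cyp2c copy, so its FPKM can hold or lack reads of these copies.

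The other genes called at both stages kept their side of the border. Lhpp, a histidine phosphatase, was at 0.890 to 1.40 FPKM in NP zone 1 and 26.1 to 32.0 FPKM in NP zone 2, and at 1.35 to 5.25 FPKM and 14.8 to 57.1 FPKM at dpc16. Gulo, the last enzyme of vitamin C synthesis, was at 9.97 to 26.9 FPKM and 112 to 151 FPKM at NP and at 23.4 to 28.2 FPKM and 63.6 to 161 FPKM at dpc16. The groups of the 2 zones did not overlap at either stage for Lhpp and Gulo, and their differences of changes were 0.58 (interval -0.68 to 1.85) and 0.95 (interval -0.02 to 1.93), or 0.00 and 0.29 without the libraries that stand apart. Lamc3, a laminin chain of basement membranes, had 1.87 to 5.47 FPKM in NP zone 1 and 1.75 to 4.23 FPKM in dpc16 zone 1, against at most 0.201 FPKM in every zone 2 library. Kcne3, a regulatory subunit of potassium channels, was listed at 0 in all 6 zone 2 libraries and was at 1.55 to 4.36 FPKM in NP zone 1 and 0.705 to 3.59 FPKM in dpc16 zone 1. Differences of changes of Lamc3 and Kcne3 were -0.30 and -0.29, or 0.050 and -0.29 without these libraries. Lamc3 and Kcne3 passed the filter on low values only through zone 1, where they were high, and without these libraries neither zone difference of Kcne3 passed (limma adjusted p = 0.059 and 0.13).

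Among genes called at dpc16 only, Aldh1b1, a mitochondrial aldehyde dehydrogenase, was at 342, 332 and 566 FPKM in dpc16 zone 1 and at 115, 84.1 and 26.2 FPKM in dpc16 zone 2. At NP it was at 115, 180.2 and 199 FPKM in zone 1 and 53.6, 34.6 and 51.7 FPKM in zone 2. Zone 1 was above zone 2 in every library of its stage. Its difference of changes was 0.85 (interval -0.47 to 2.18), and -0.01 without the libraries that stand apart, the lowest dpc16 zone 2 value being that of replicate 3. Sult3a2, a sulfotransferase, was low before pregnancy in both zones. It was listed at 0 in the 3 NP zone 1 libraries and was at 1.19, 2.63 and 2.43 FPKM in NP zone 2, and at dpc16 it was at 10.99, 8.18 and 2.89 FPKM in zone 1 and 91.0, 104.9 and 19.2 FPKM in zone 2. It rose in both zones (limma adjusted p = 0.0076 and 9.3e-05), and its difference of changes on the log2(FPKM + 1) scale was -1.36 (interval -3.03 to 0.32), or -2.12 without the libraries that stand apart, and with a pseudocount of 0.1 it was 1.24, so its sign is set by the pseudocount. Tbx3, a transcription factor of the central zone, was at 1.35 to 7.86 FPKM in zone 1 and 8.09 to 23.3 FPKM in zone 2 at NP, and at 0.680 to 2.49 FPKM and 8.47 to 25.5 FPKM at dpc16. Its zone difference passed at dpc16 (-2.63, adjusted p = 0.018) and not at NP (-1.29, adjusted p = 0.69), and its difference of changes was -1.34 with an interval from -2.75 to 0.08, and again -1.34 without the libraries that stand apart.

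The genes with the smallest unadjusted p of the difference of changes are described next, 8 in each direction, with members of the gene lists chosen by the same rule. None passed the test after adjustment. The choice used these p-values, so they are a description. The p-values of the changes within each zone for genes so chosen are a description too, since these changes make up the difference. Above 0 the 8 genes include Cyp3a41a, while Cyp3a16 was named for its NP zone difference and Cyp3a44 from the gene lists. Cyp3a genes encode cytochromes P450 that oxidise steroids and drugs. Cyp3a16, Cyp3a41a and Cyp3a44 lie in the same region of chromosome 5, and their promoters are printed to show how alike these genes are. The sequences are from RefSeq on GRCm38.p6, all on the minus strand, at chr5:145469674-145469973 for Cyp3a16, chr5:145720087-145720386 for Cyp3a41a and chr5:145805825-145806124 for Cyp3a44. Capitals mark the 3 runs of at least 20 bases, 116 bases in all, that the promoters of these genes share.
Cyp3a16 promoter: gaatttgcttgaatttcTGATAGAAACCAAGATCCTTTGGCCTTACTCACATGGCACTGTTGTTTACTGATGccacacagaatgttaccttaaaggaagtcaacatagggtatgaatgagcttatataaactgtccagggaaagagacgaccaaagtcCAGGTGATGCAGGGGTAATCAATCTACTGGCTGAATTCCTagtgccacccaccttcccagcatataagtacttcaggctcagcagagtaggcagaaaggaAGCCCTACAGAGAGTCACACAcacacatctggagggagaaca
Cyp3a41a promoter: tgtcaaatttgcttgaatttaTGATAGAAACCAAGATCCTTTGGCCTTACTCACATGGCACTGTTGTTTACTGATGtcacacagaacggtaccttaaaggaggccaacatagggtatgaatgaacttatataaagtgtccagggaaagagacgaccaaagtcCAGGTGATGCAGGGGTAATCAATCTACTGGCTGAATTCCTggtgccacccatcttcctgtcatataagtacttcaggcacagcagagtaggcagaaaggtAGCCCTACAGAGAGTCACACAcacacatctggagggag
Cyp3a44 promoter: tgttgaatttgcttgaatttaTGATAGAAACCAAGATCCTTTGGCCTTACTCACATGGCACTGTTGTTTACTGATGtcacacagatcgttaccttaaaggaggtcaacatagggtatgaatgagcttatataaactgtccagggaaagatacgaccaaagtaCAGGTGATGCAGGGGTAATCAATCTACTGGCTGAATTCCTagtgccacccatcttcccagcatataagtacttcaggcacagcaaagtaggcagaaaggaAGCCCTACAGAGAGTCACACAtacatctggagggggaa
The promoters were 94.3% to 95.9% identical to each other over their aligned bases and 79.6% to 82.9% identical to that of Cyp3a11, the Cyp3a member with the highest FPKM at NP among those compared here. The motif TTCNNNGAA, the palindrome bound by STAT5 below the prolactin and growth hormone receptors, was in 8.30% of all 32851 promoters on either strand, in 1 of the 24 border gene promoters (4.17%), and in none of these Cyp3a promoters, and CTTTGA was in none of them either. Such a count says only that the letters are not in this window.

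Cyp3a16 was nearly absent from zone 1 before pregnancy. It was at 4.26, 3.05 and 2.099 FPKM in NP zone 1 and at 173, 33.0 and 112 FPKM in NP zone 2. At dpc16 it was at 64.7, 49.8 and 52.0 FPKM in zone 1 and at 299, 211 and 108 FPKM in zone 2. Every dpc16 zone 1 library exceeded every NP zone 1 library, whereas the zone 2 groups overlapped, and zone 2 was above zone 1 in every library. Cyp3a16 rose in zone 1 (3.80 on the log2 scale, limma adjusted p = 0.0022) and the change in zone 2 was 1.13 (adjusted p = 0.40). The zone difference was -4.43 at NP, -4.31 at dpc8 and -1.77 at dpc16. The difference of changes was 2.67 with an interval from 0.74 to 4.59 and an unadjusted p of 0.00891, and 2.45 without the libraries that stand apart. Since the gene was named for its NP zone difference, the same quantity was also taken against dpc8, whose libraries that naming did not use. Between dpc8 and dpc16 the change in zone 1 exceeded that in zone 2 by 2.54 (interval 0.62 to 4.47, adjusted p = 0.93), or 2.80 (interval 1.29 to 4.31) without the libraries that stand apart, which at dpc8 are replicate 1 of zone 1 and replicate 2 of zone 2. Only 0.973% of its 86-base windows occur in another Cyp3a copy.

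Cyp3a41a was at 2.56, 2.57 and 0.863 FPKM in NP zone 1, at 30.8, 24.3 and 52.7 FPKM in NP zone 2, at 18.3, 23.7 and 14.4 FPKM in dpc16 zone 1 and at 68.7, 52.2 and 20.7 FPKM in dpc16 zone 2. The zone 1 groups were apart and the zone 2 groups overlapped. It rose in zone 1 (2.76, limma adjusted p = 0.00046), the change in zone 2 was 0.30 (adjusted p = 0.77), and the difference of changes was 2.46 (interval 1.24 to 3.68, unadjusted p = 0.000389), or 2.12 without the libraries that stand apart. Reads of this gene are hard to place, since 89.9% of its 86-base windows also occur in Cyp3a41b. For Cyp3a41b the difference of changes was 0.38 with an interval from -1.51 to 2.27, or -0.076 without the libraries that stand apart, so the values of the pair are uncertain. Cyp3a44, with 5.01% of its windows in another copy, was at 16.6, 39.2 and 24.8 FPKM in NP zone 1, at 69.4, 80.3 and 194 FPKM in NP zone 2, at 578, 353 and 333 FPKM in dpc16 zone 1 and at 596, 397 and 138 FPKM in dpc16 zone 2. The zones were apart at NP and overlapped at dpc16. Cyp3a44 rose in zone 1 (3.96, adjusted p = 6.4e-05), the change in zone 2 was 1.63 (adjusted p = 0.09), or 2.23 (adjusted p = 0.0025) without the libraries that stand apart, and the difference of changes was 2.33 (interval 0.82 to 3.84) or 1.44. Cyp3a11 itself had a difference of changes of 0.34 (interval -2.04 to 2.72), or -0.85 without these libraries.

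**Figure D3:**
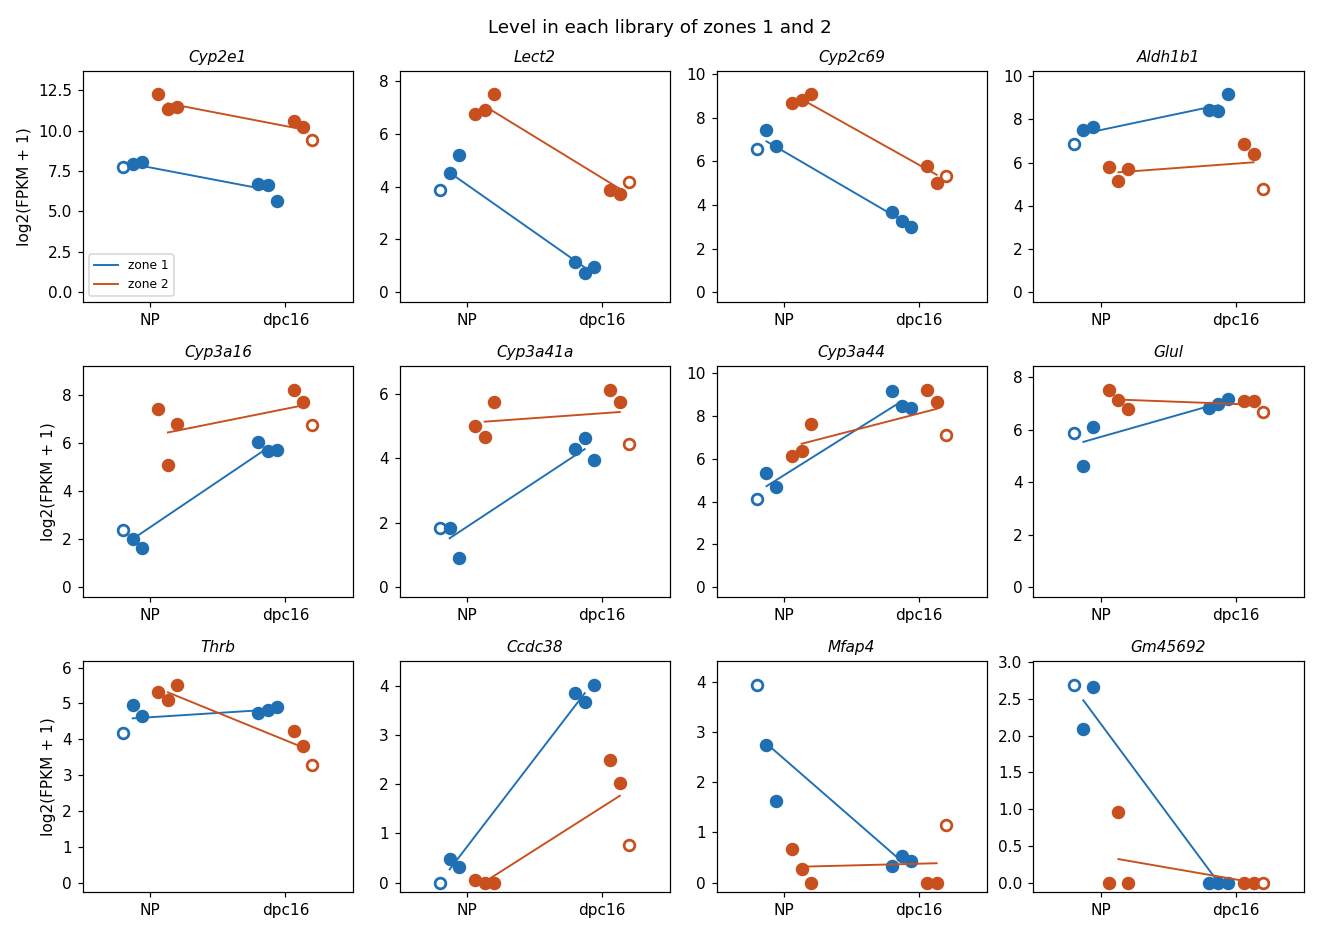
log2(FPKM + 1) of 12 genes in each library of zone 1 (blue) and zone 2 (red) at NP and dpc16, with lines joining group means and open circles for the libraries that stand apart. The lines of Cyp2e1, Lect2 and Cyp2c69 run side by side, and those of Cyp3a16, Cyp3a41a and Glul close from NP to dpc16.

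Glul, glutamine synthetase, is the classical gene of the innermost central hepatocytes, and its low level in zones 1 and 2 lies far below that of zone 3, where it was at 1349 to 3264 FPKM over NP and dpc16. It was at 58.1, 23.6 and 69.0 FPKM in NP zone 1, at 184, 139.7 and 110.5 FPKM in NP zone 2, at 113, 127 and 145 FPKM in dpc16 zone 1 and at 138, 137 and 101 FPKM in dpc16 zone 2. The zone 1 groups did not overlap, and the zones overlapped at dpc16 and not at NP. The difference of changes was 1.66 (interval 0.40 to 2.92, unadjusted p = 0.0122) and 1.68 without the libraries that stand apart, and the change within zone 1 was 1.46 (limma adjusted p = 0.10), or 1.63 (adjusted p = 0.044) without these libraries. Axin2, a feedback inhibitor that reports Wnt signalling, had a difference of changes of 1.64 (1.41 without these libraries) at 0.283 to 2.16 FPKM in dpc16 zone 1 and 0.325 to 1.26 FPKM in dpc16 zone 2, after 0.330 to 1.177 FPKM and 2.11 to 9.98 FPKM at NP. Of 8 tested Wnt targets the difference of changes was above 0 for 7, or for 5 without these libraries, against 51.0% and 52.6% of all genes. Lgr5, a Wnt receptor partner, had a value of 0.01, and 1.30 without these libraries, at levels of at most 6.05 FPKM. With all libraries no Wnt target rose in either zone, and Notum, a secreted Wnt inhibitor, fell in zone 2 (-2.43, limma adjusted p = 0.0047) at a change of -1.82 in zone 1 (adjusted p = 0.053). Without these libraries again none rose, and Notum fell in both zones (-2.09 and -1.86, limma adjusted p = 0.00065 and 0.0014). The change of Lgr5 in zone 2 was then -1.55. Lgr5 reached the FPKM minimum in 3 libraries of NP zone 2 and in 1 each of NP zone 1 and dpc16 zone 2. It passed the filter on low values only through NP zone 2, where it was high, so no test is given.

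Thrb, the thyroid hormone receptor beta, had the smallest unadjusted p of all genes, 0.000164. It was at 16.9, 29.9 and 23.9 FPKM in NP zone 1 and at 25.6, 27.4 and 29.0 FPKM in dpc16 zone 1, where the groups overlapped. In zone 2 it was at 38.7, 33.2 and 44.9 FPKM at NP and at 17.7, 12.99 and 8.75 FPKM at dpc16, with no overlap. It fell in zone 2 (-1.54, limma adjusted p = 0.0025), the change in zone 1 was 0.24 (adjusted p = 0.81), and the difference of changes was 1.78 (interval 0.96 to 2.59), or 1.32 without the libraries that stand apart. Thrb was chosen by this difference, so the p-values of its 2 parts are a description. The order of the zones was zone 2 above zone 1 in every NP library to zone 1 above zone 2 in every dpc16 library, though neither zone difference passed (-0.73 and 1.05, adjusted p = 0.71 and 0.22). Uevld and Abca8a also fell in zone 2, and Pcp4l1 was lower there at dpc16. Uevld, which carries a ubiquitin-conjugating-like domain, was at 8.13 to 8.72 FPKM in NP zone 2 and 1.87 to 4.87 FPKM in dpc16 zone 2, against 3.08 to 3.65 FPKM and 3.37 to 6.35 FPKM in zone 1. Abca8a, an ABC transporter, fell from 47.4 to 89.9 FPKM to 3.45 to 7.14 FPKM in zone 2, and was at 43.3 to 101 FPKM and 15.0 to 32.0 FPKM in zone 1, where it fell only without the libraries that stand apart (-1.70, limma adjusted p = 0.024). Pcp4l1, a small protein with a calmodulin-binding motif, was at 4.91 to 16.03 FPKM in NP zone 2 and 0.0442 to 0.828 FPKM in dpc16 zone 2, and passed the filter on low values through NP zone 2 and 1 other library, so no test is given. Their differences of changes were 1.56, 1.997 and 1.88 (1.59, 1.52 and 2.46 without the libraries that stand apart).

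Ccdc38 and 2210407C18Rik were higher at dpc16 than at NP and lay higher in zone 1 at dpc16. Ccdc38, a coiled-coil protein gene of chromosome 10, was at 0, 0.390 and 0.253 FPKM in NP zone 1 and at 0.0309, 0 and 0 FPKM in NP zone 2. At dpc16 it was at 13.6, 11.7 and 15.3 FPKM in zone 1 and at 4.66, 3.06 and 0.706 FPKM in zone 2, and it was listed at 0 in all NP and dpc16 libraries of zone 3. All groups were apart at dpc16 and each dpc16 library was above each NP library. The changes on the log2 scale were 3.58 in zone 1 and 1.75 in zone 2. Ccdc38 passed the filter on low values only through dpc16, where it was high, so no test of these changes is given. The difference of changes was 1.83, or 1.20 without the libraries that stand apart. Between dpc8 and dpc16 the value was 1.85, or 0.73 without these libraries. The zone difference of Ccdc38 at dpc8 was 0.24, or 0.86 without these libraries, so it was not found at dpc16 only. The uncharacterised gene 2210407C18Rik on chromosome 11 was listed at 0 in every NP, dpc8 and zone 3 library. It was at 2.27, 1.179 and 2.41 FPKM in dpc16 zone 1, about 23.5, 17.3 and 28.0 reads on a transcript of 998 bases, and at 0.376, 0.270 and 0.0444 FPKM in dpc16 zone 2, about 4.35, 8.66 and 1.45 reads. The change was 1.53 in zone 1 and 0.29 in zone 2, and the difference of changes was 1.25, or 1.13 without the libraries that stand apart. It passed the filter on low values only through dpc16 zone 1, where it was high, so its tests carry no weight. That holds also for the call it gave with no filter on low values (1 of 16560 genes, adjusted p of 0.00348), since groups at 0 add no spread.

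Mapre3, which encodes a protein of growing microtubule ends, had narrow groups. It was at 16.9, 19.0 and 19.0 FPKM in NP zone 1 and at 32.8, 31.5 and 32.3 FPKM in NP zone 2, and at 32.3, 35.6 and 27.4 FPKM in dpc16 zone 1 and 30.003, 23.4 and 20.5 FPKM in dpc16 zone 2. Zone 2 was higher in every NP library, and the zones overlapped at dpc16. Its difference of changes was 1.15 (interval 0.55 to 1.75), or 0.98 without the libraries that stand apart. At dpc8 the values were 27.1, 31.8 and 20.8 FPKM in zone 1 and 16.2, 24.3 and 21.5 FPKM in zone 2, so that the difference of changes between dpc8 and dpc16 was 0.02 (interval -0.59 to 0.62), or -0.20 without these libraries.

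Among the 8 genes below 0, Gm45692 was at 5.46, 3.26 and 5.31 FPKM in NP zone 1 and at 0, 0.940 and 0 FPKM in NP zone 2, and was listed at 0 in all dpc16 libraries of both zones. On the log2 scale the change in zone 1 was -2.48, and the difference of changes was -2.16, or -2.06 without the libraries that stand apart. It was also listed at 0 in the 3 dpc8 zone 1 libraries, so this zone 1 signal was found at NP only. Msmp, a small secreted protein of the microseminoprotein family, was at 1.08 to 1.39 FPKM in NP zone 1 and listed at 0 in dpc16 zone 1 (-1.182), with at most 0.553 FPKM in zone 2. Gm45692 and Msmp passed the filter on low values only through NP zone 1, where they were high, so no test of their falls is given. Gemin7, part of the complex that assembles spliceosomal ribonucleoproteins, was at 31.6, 21.6 and 20.9 FPKM in NP zone 1, 19.9, 17.5 and 13.7 FPKM in NP zone 2, 16.6, 16.8 and 19.0 FPKM in dpc16 zone 1 and 26.8, 26.8 and 40.8 FPKM in dpc16 zone 2. Zone 1 was higher at NP and zone 2 at dpc16 in every library, and the difference of changes was -1.29 (interval -2.02 to -0.56), or -0.91 without the libraries that stand apart. The other 5 were 4921524J17Rik (-2.001), which rose in zone 2 (1.85, limma adjusted p = 0.01), Gm42420 (-2.24), Mfsd11 (-1.83), Rtl8b (-1.75) and Plekha4 (-1.60). For Gemin7, Mfsd11 and Rtl8b the highest value of NP zone 1 and of dpc16 zone 2 was that of the library that stands apart. Without these libraries the differences of changes of Mfsd11 and Rtl8b were -1.19 and -1.13.

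The gene lists of hepatocyte functions moved with the libraries that stand apart. Over 19 such lists the median difference of changes lay between 0.07 and 1.08, above 0 in each, and without these libraries between -0.36 and 0.35, above 0 in 6. The periportal markers show this. All 14 were above 0 with a median of 1.08, against 0.01 over all genes tested, and without these libraries the median was 0.13 and 10 of 14 were above 0. With a connective tissue covariate the periportal median was 0.58, and the medians of the 19 lists lay between -0.04 and 0.58. None of the 14 had an unadjusted p under 0.05 in either fit. Cps1, the entry enzyme of the urea cycle, was at 778, 1341 and 1698 FPKM in NP zone 1, 1259.6, 1254 and 1342 FPKM in NP zone 2, 1088, 1173 and 1142 FPKM in dpc16 zone 1 and 869, 1005 and 218 FPKM in dpc16 zone 2. In NP zone 1 and in dpc16 zone 2 the lowest value was that of the library that stands apart. Its difference of changes was 1.06, and 0.05 (interval -0.70 to 0.79) without these libraries. Among the periportal markers Etnppl, which breaks down phosphoethanolamine, fell in both zones, and Gls2, liver glutaminase, fell in zone 2. Without these libraries Cyp17a1 rose in both zones (2.04 and 2.55, limma adjusted p = 0.020 and 0.0029) and Hsd17b6, a steroid dehydrogenase, rose in zone 2 (1.90, adjusted p = 0.0069), while Hal, which breaks down histidine, fell in zone 2 (-1.27, adjusted p = 0.034) beside Etnppl and Gls2. Cdh1, E-cadherin, the adhesion protein of portal hepatocytes and bile ducts, was at 16.8 to 55.3 FPKM in NP zone 1 and 5.04 to 10.2 FPKM in NP zone 2, and at 17.2 to 33.3 FPKM and 1.81 to 5.88 FPKM at dpc16. Its zones were apart at both stages, and its difference of changes was 0.37 (interval -1.22 to 1.96), or -0.45 without these libraries.

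**Figure D4:**
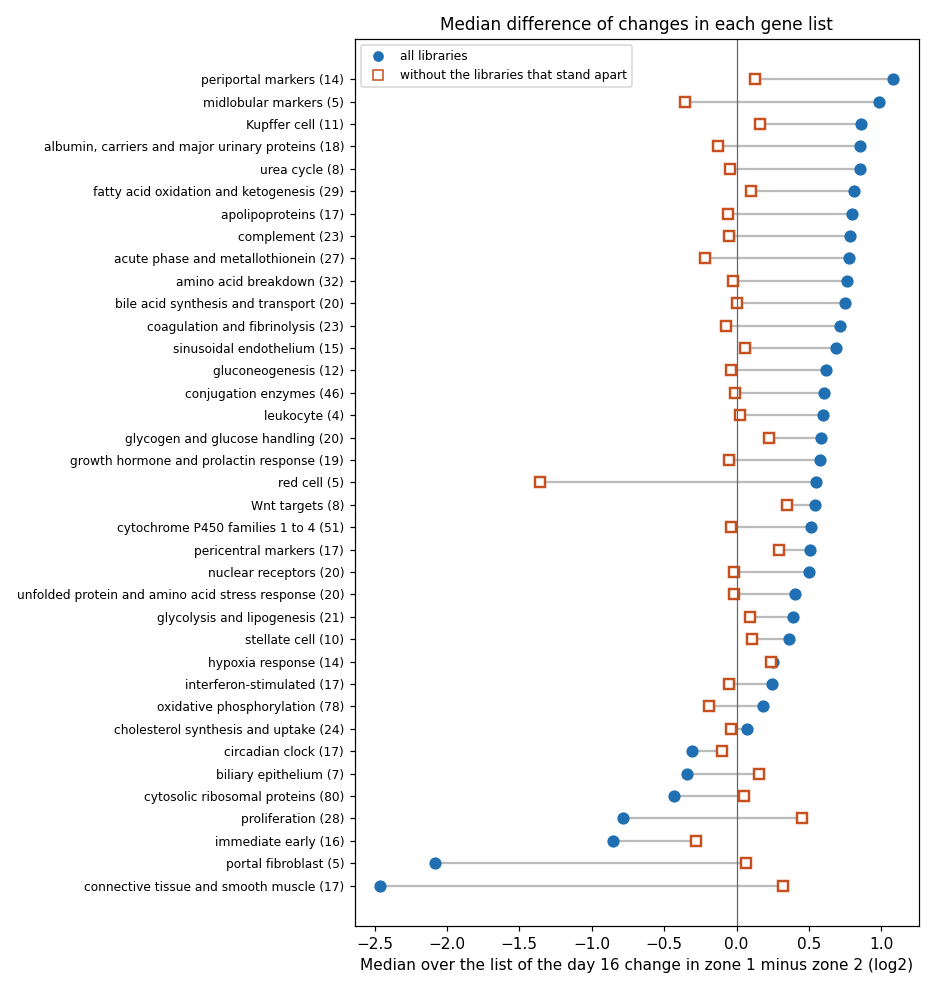
Median difference of changes (log2) in each gene list, with the number of genes tested in brackets, over all libraries (blue circles) and without the libraries that stand apart (open squares). The connective tissue list moved from -2.46 to 0.32 and the periportal list from 1.08 to 0.13.

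Several other metabolic lists gave the same picture, though not all moved as far. The 24 genes of cholesterol synthesis and uptake had medians of 0.07 with all libraries and -0.04 without those that stand apart. For 21 genes of glycolysis and lipogenesis they were 0.39 and 0.09. The median of the 8 urea cycle genes was 0.85 with all libraries and -0.05 without those that stand apart. For 32 genes of amino acid breakdown it was 0.76 and -0.02, for 12 of gluconeogenesis 0.62 and -0.04, for 29 of fatty acid oxidation and ketogenesis 0.81 and 0.10, for 17 apolipoprotein genes 0.79 and -0.06, and for 20 of bile acid synthesis and transport 0.75 and 0.00. Abcc3, which exports bile acid conjugates back to the blood, fell from 61.8 to 79.4 FPKM to 7.79 to 9.55 FPKM in zone 1 and from 74.2 to 112 FPKM to 1.65 to 7.92 FPKM in zone 2 (-2.88 and -4.16, limma adjusted p = 0.0032 and 5.0e-05), with a difference of changes of 1.28 (interval -0.24 to 2.81), or 0.73 without these libraries. The 20 genes of glycogen and glucose handling had a median of 0.58, or 0.22 without these libraries, and 16 or 15 of them were above 0. Among them Ppp1r3b, which directs a phosphatase to glycogen, fell in zone 2 (-1.98, limma adjusted p = 0.025, or 0.095 without these libraries). Among the 17 apolipoprotein genes, which here include lipid-handling partners, Apoc2, the activator of lipoprotein lipase, rose in both zones. Hepatic lipase, Lipc, fell in both. It was at 72.5, 102 and 132 FPKM in NP zone 1 and 23.9, 35.4 and 17.6 FPKM in dpc16 zone 1, and at 184, 157 and 127 FPKM and 22.8, 12.5 and 8.23 FPKM in zone 2. The falls were -1.97 (limma adjusted p = 0.0031) and -3.44 (adjusted p = 3.8e-06), and the difference of changes was 1.47 (interval 0.43 to 2.50), or 0.92 without these libraries.

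Cytochromes P450 of families 1 to 4 held 7 of 51 tested genes with an unadjusted p under 0.05, all above 0, where 4.44% of all genes had one. Without the libraries that stand apart there were 4, namely Cyp3a16, Cyp3a41a, Cyp3a44 and Cyp2c50, and the median moved from 0.51 to -0.04. Of the list 5 rose in zone 1 (Cyp4a31, Cyp3a16, Cyp3a44, Cyp2d40 and Cyp3a41a) and 1 in zone 2 (Cyp4a31, a fatty acid hydroxylase). There were 4 that fell in zone 1 (Cyp2b13, Cyp2c37, Cyp2c50 and Cyp2c69) and 10 in zone 2, including these 4 and Cyp2e1. Of all genes tested 1.50% and 2.98% were called in these zones. Without the libraries that stand apart the counts of the list were closer, with 7 that rose and 11 that fell in zone 1 and 4 that rose and 11 that fell in zone 2, where 3.32% and 5.00% of all genes were called. Cyp2b13, a female-predominant cytochrome P450, was at 33.7, 63.8 and 89.5 FPKM in NP zone 1 and 3.32, 1.11 and 4.55 FPKM in dpc16 zone 1, and at 119, 95.5 and 97.1 FPKM and 3.14, 3.88 and 4.47 FPKM in zone 2. It fell by 3.99 and 4.44 on the log2 scale (limma adjusted p = 1.0e-05 and 3.8e-06), with a difference of changes of 0.45 (interval -0.88 to 1.78), or 0.17 without these libraries. Cyp2c50, of which 12.8% of the 86-base windows occur in another copy, fell from 80.3 to 318 FPKM to 3.38 to 8.13 FPKM in zone 1 and from 273 to 543 FPKM to 25.8 to 53.7 FPKM in zone 2, and its difference of changes was -1.31, or -1.77 (interval -3.48 to -0.06) without these libraries. For 46 conjugation enzymes the median was 0.60, and -0.01 without these libraries. The pericentral markers had 4 of 17 genes with an unadjusted p under 0.05 (Axin2, Cyp27a1, Glul and Rnf43), or 2 without these libraries (Lgr5 and Glul), and a median of 0.51, or 0.29. Lgr5 passed the filter on low values only through NP zone 2, where it was high, so its p carries no weight.

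The hormone receptors Prlr and Ghr rose on both sides. Prlr, the prolactin receptor, was at 123, 258 and 253 FPKM in NP zone 1 and 275, 300.2 and 375 FPKM in NP zone 2, and at 2192, 2037 and 2211 FPKM in dpc16 zone 1 and 2482, 2041 and 697 FPKM in dpc16 zone 2. It rose in zone 1 (3.42, limma adjusted p = 6.6e-06) and in zone 2 (2.27, adjusted p = 0.0011). Its difference of changes was 1.14, and 0.23 with an interval from -0.27 to 0.73 without the libraries that stand apart. Ghr, the growth hormone receptor, rose by 3.62 and 2.75, and its difference of changes was 0.86, or 0.15 with an interval from -0.46 to 0.76 without these libraries. For these receptors the interval without the libraries that stand apart lay within 1 log2 unit of 0. Stat5a, which carries their signal to the nucleus, was at 3.80, 5.94 and 3.22 FPKM in NP zone 1, 5.17, 9.97 and 7.29 FPKM in NP zone 2, 3.21, 4.79 and 6.95 FPKM in dpc16 zone 1 and 2.23, 3.35 and 3.52 FPKM in dpc16 zone 2. It fell in zone 2 (-1.05, adjusted p = 0.043), and the difference of changes was 1.20 (interval 0.38 to 2.03), or 1.23 without these libraries, when the fall in zone 2 was -1.14 at an adjusted p of 0.056.

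Plasma protein lists gave medians of 0.77 for 27 acute phase and metallothionein genes, 0.78 for 23 complement genes, 0.72 for 23 of coagulation and fibrinolysis and 0.85 for 18 of albumin, carriers and major urinary proteins, and of -0.22, -0.05, -0.07 and -0.13 without the libraries that stand apart. Ceruloplasmin (Cp) and Itih4 rose in both zones, Mt1 and Mt2, the metal-binding metallothioneins, rose in zone 2, and C9, the pore-forming complement protein, fell in zone 2. Without the libraries that stand apart Mt1 also rose in zone 1 (limma adjusted p = 0.049) and C9 also fell there (-2.60, adjusted p = 0.0038). In that fit 2.09% of all genes tested rose in zone 1 and 2.84% in zone 2. Of 27 acute phase and metallothionein genes 4 rose in zone 1 and 9 in zone 2 (2 and 4 with all libraries), among them Lbp, which binds bacterial lipopolysaccharide, in both, and none fell. Of 23 coagulation genes 8 and 10 rose (1 and 0 with all libraries) and none fell. Of the 18 in the albumin and carrier list 7 and 8 rose (2 and 1 with all libraries) and 2 and 1 fell, namely Ttr, the thyroxine carrier transthyretin, in both zones (-1.39 and -1.44, limma adjusted p = 4.1e-05 and 2.1e-05) and Mup20, a major urinary protein, in zone 1. Serpina6, which encodes the corticosteroid carrier of plasma, rose more than any other list member in both zones. It was at 231, 99.6 and 328 FPKM in NP zone 1, 528, 178 and 178 FPKM in NP zone 2, 16842, 15322 and 24154 FPKM in dpc16 zone 1 and 18983, 16742 and 7090.2 FPKM in dpc16 zone 2. Its rise was 6.54 in zone 1 and 5.67 in zone 2 (limma adjusted p = 2.3e-08 and 3.6e-07), and its difference of changes was 0.87 (interval -0.57 to 2.31), or 0.54 without these libraries. Of the stress lists, the 17 circadian clock genes had a median of -0.31 (-0.10 without these libraries), the 16 immediate early genes -0.86 (-0.28), the 20 genes of the unfolded protein and amino acid stress response 0.40 (-0.02), the 14 hypoxia genes 0.25 (0.24) and the 17 interferon-stimulated genes 0.24 (-0.05). Creld2 and Sdf2l1, chaperone partners of the endoplasmic reticulum, rose in zone 1 (limma adjusted p = 0.034 and 0.040, or 0.041 and 0.095 without these libraries). Gbp3, an interferon-induced GTPase, fell in both zones, by 1.62 and 1.83 on the log2 scale. The 80 cytosolic ribosomal protein genes had a median of -0.43 with 4 above 0, and 0.05 with 50 above 0 without the libraries that stand apart, and the 78 genes of oxidative phosphorylation had 0.18 and -0.19.

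Markers of other cell types also moved with these libraries. The connective tissue list had a median of -2.46 with 1 of 17 genes above 0, and 0.32 with 11 above 0 without the libraries that stand apart. Portal fibroblast genes went from -2.08 to 0.06 and the 28 tested proliferation genes from -0.78 to 0.45. Mfap4, a microfibril protein, was the member with the smallest p, at 14.3, 5.70 and 2.08 FPKM in NP zone 1 and 0.260, 0.436 and 0.337 FPKM in dpc16 zone 1, with at most 1.22 FPKM in zone 2. The change in zone 1 was -2.34, and its difference of changes was -2.41, or -1.44 without these libraries. Mfap4 passed the filter on low values only through NP zone 1, where it was high, and 1 other library, so no test is given. The 11 Kupffer cell genes, of the resident macrophages, were higher in zone 2 in 11 cases at NP and 6 at dpc16, and in 11 and 11 without these libraries. Clec4f, a receptor of these cells, fell in zone 2 (-1.32, adjusted p = 0.044), with its lowest value of 15.5 FPKM in replicate 3, and without these libraries the change was -0.70 (adjusted p = 0.052). Medians of the difference of changes were 0.86 for the Kupffer list (0.16 without these libraries), 0.69 for 15 genes of the sinusoidal endothelium (0.06), 0.36 for 10 stellate cell genes (0.11), -0.34 for 7 biliary genes (0.15), 0.60 for 4 leukocyte genes (0.02) and 0.55 for 5 red cell genes (-1.36). Of the exocrine pancreas, skeletal muscle and Y-linked lists only 1, 2 and 1 genes could be tested. With a connective tissue covariate in place of leaving out libraries, the medians were -0.10 for the connective tissue list, 0.17 for portal fibroblast genes, 0.03 for proliferation and 0.46 for the Kupffer list.

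Of 10 genes that the study named, 9 could be tested, and 7 were above 0 with all libraries and 5 without those that stand apart. At dpc16, 6 of the 9 had the higher mean in zone 1 with all libraries and 1 without those that stand apart. Slc45a3, Sgk1, H6pd and Pdk4 were named from whole livers, and the others with these zone samples in view, so that those are not independent evidence. Cyp17a1, which makes androgen precursors, was at 107 to 329.9 FPKM in NP zone 1 and 672 to 933 FPKM in dpc16 zone 1, and at 46.0 to 82.0 FPKM and 64.7 to 401 FPKM in zone 2. Cyp1a2, which oxidises caffeine, was at 36.9 to 110 FPKM and 14.2 to 31.8 FPKM in zone 1 and at 226 to 260.5 FPKM and 61.3 to 104 FPKM in zone 2, with zone 2 higher in every library of its stage. Their differences of changes were 0.56 and 0.18, and -0.50 and -0.19 without the libraries that stand apart, when Cyp17a1 rose and Cyp1a2 fell in both zones. H6pd, which feeds NADPH to steroid reduction in the endoplasmic reticulum, had 0.98 (0.18), Pdk4, which spares pyruvate, 1.24 (1.50), Slc45a3, a sugar transporter, 1.07 (0.64), and Sgk1, a kinase under steroid control, -0.76 (-1.25), each with an interval that held 0. Without the libraries that stand apart H6pd rose in both zones (1.182 and 1.001, limma adjusted p = 0.0060 and 0.015) and Sgk1 rose in zone 2 (1.85, adjusted p = 0.039). Hmmr, a mitotic spindle protein, was too low to be tested.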

How the data were processed

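RNA of laser-dissected liver zones 1 and 2 was analysed in 12 libraries (NP and dpc16, 3 per group), with the other 15 of the 27 libraries used for the spread. The authors depleted ribosomal RNA, trimmed the reads with cutadapt, aligned them to mm10 with HISAT2 2.1.0, kept unique reads and let Cuffdiff (Cufflinks 2.2.1) compute FPKM over the protein-coding part of GENCODE, and the deposited values are these FPKM. The depth of each library was estimated from the steps of low FPKM values and sets the precision of low genes, and no counting interval was computed. Genes were tested where 3 or more of the 12 libraries reached an FPKM of 1. The test was limma 3.58.1 (R 4.3.3), run on log2(FPKM + 1) with 9 group means, trend and robust settings, two-sided tests and Benjamini-Hochberg adjustment over all genes at 0.05. Fold changes on this scale understate those of low genes. Gene positions are those of GENCODE on mm10, with 21806 identifiers matched. The self-test ran on simulated data.

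Named genes were those past the threshold, else the 8 per direction with the smallest unadjusted p, up to 4 per direction for each zone difference, the genes the study named and the 2 members with the smallest p of each list. Members and lists were chosen with earlier results of these data known. Genes outside this rule (such as Ghr, Cdh1, Etnppl, Lgr5 and Cyp3a11) were chosen after their values were seen. Zone 1 and zone 2 libraries with the same replicate number correlated at 0.30, 0.27 and 0.37 at dpc16 and at 0.19, 0.31 and -0.07 at NP, and the numbers were not taken as pairs over both stages. The zone 2 library closest to a zone 1 library had the same number in every case but replicate 3 of NP. The alternatives were a pseudocount of 0.1, no filter, a filter of FPKM 5, other scalings, array weights, replicate blocks, a connective tissue covariate, the 12 libraries alone, and leaving out libraries.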

Additional observations from a re-analysis of the deposited data

How the results depend on the processing

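No alternative setting called a gene for the difference of changes, except the setting with no filter on low values, which called 1. Unadjusted p under 0.05 was found for 293 genes (without replicate 3 of dpc16 zone 2) to 1034 (replicate block of stage and number), and the range of the number called was 0 to 0 when 1 library was left out. For NP, 12 genes were called with only the 12 libraries, 12 with the filter of FPKM 5, 41 with array weights, 57 with the replicate block of stage and number and 37 with the connective tissue covariate, and 13 (without replicate 1 of NP zone 1) to 28 when 1 library was left out. For dpc16 the counts were 2 with only the 12 libraries, 10 with the pseudocount 0.1, 62 with array weights, 35 with the replicate block of stage and number, 53 with the covariate and 37 without the 6 libraries with Y-linked FPKM. Leaving out 1 library gave 11 (without replicate 1 of zone 1 or replicate 2 of zone 2 at dpc16) to 22. The replicate block by number across stages gave 0, 23 and 19 genes. None of the 16 zone differences at NP and 15 at dpc16 that were recomputed changed sign. Depth limits genes near 0, such as 2210407C18Rik in dpc16 zone 2, to 1.45 to 8.66 reads. The cause of these moves was not tested.

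The difference of changes of these genes, none called, changed sign. The values were with array weights, Cyp3a41b -0.40, Cyp3a11 -0.14, Cyp2e1 -0.15, Lamc3 0.069, Cyp17a1 -0.34. With the covariate, Cyp3a11 -0.63, Cyp2e1 -0.18, Cyp17a1 -0.25, Cyp1a2 -0.19. With median-ratio size factors, Cyp2e1 -0.0096, Lgr5 -0.0065. With the pseudocount 0.1, Sult3a2 1.24, Lgr5 -0.043. Without the 6 libraries with Y-linked FPKM, Cyp3a41b -0.076, Cyp3a11 -0.85, Cyp2e1 -0.39, Lhpp -0.0046, Lamc3 0.050, Sult3a1 -0.24, Aldh1b1 -0.0085, 5330417C22Rik 0.050, Cyp17a1 -0.50, Cyp1a2 -0.19, Acta1 0.23. Leaving out 1 library gave Cyp3a41b -0.18 to 1.09, Cyp3a11 -0.42 to 1.22, Cyp2e1 -0.31 to 0.36, Cyp2c69 -0.33 to 0.11, Lhpp -0.034 to 0.99, Kcne3 -0.59 to 0.12, 5330417C22Rik -1.08 to 0.019, Cyp17a1 -0.30 to 1.07, Cyp1a2 -0.15 to 0.65, Lgr5 -0.57 to 0.82.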

Other observations

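At dpc8 the same contrast called no gene in limma's test (smallest adjusted p of 1), with 255 genes at an unadjusted p under 0.05 (380, again with none called, without the libraries that stand apart, 2 of which are of dpc8 zones 1 and 2), and the contrast of dpc16 with dpc8 called none (smallest adjusted p of 0.651), with 354 (363 and again none). In zone 1 at dpc8 Cyp3a44 was at 198, 137 and 161 FPKM against 16.6 to 39.2 FPKM at NP, while Cyp3a16 was at 21.1, 13.95 and 4.70 FPKM and its zone difference was still -4.31 (-4.97 without these libraries). For Cyp3a44 the excess of zone 1 over zone 2 in the change from dpc8 to dpc16 was 1.35 (interval -0.16 to 2.85), or 1.22 without these libraries.

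Zone 3, beyond the border described here, gave context for genes with lower values at dpc16 in zones 1 and 2. Lect2 was at 276 to 543 FPKM in NP zone 3 and 129 to 138 FPKM in dpc16 zone 3, a change of -1.44 (limma adjusted p = 0.053), and Cyp2c69 was at 634 to 901 FPKM and 403 to 583 FPKM there, a change of -0.61 (adjusted p = 0.50). Cyp2e1 was at 7106 to 11838 FPKM in NP zone 3 and 4105 to 8257 FPKM in dpc16 zone 3 (-0.56, adjusted p = 0.68). Sult3a2 rose there too, from 7.70 to 15.2 FPKM to 177 to 575 FPKM (4.89, adjusted p = 2.6e-05). Whether the changes in zone 3 differed from those in zones 1 and 2 was not tested.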
